A study of Mus musculus with 22 samples.

Results

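Cholesterol is built from acetyl-CoA through the mevalonate pathway, and its supply is watched by a sensor in the endoplasmic reticulum. When sterol is scarce, the transcription factor SREBP2, encoded by Srebf2, is carried to the Golgi, cut, and switches on the genes of synthesis and uptake. When sterol is plentiful, the Insig proteins hold the factor back in the endoplasmic reticulum. In fat and mammary tissue the related factor SREBP1, encoded by Srebf1, is best known for driving fatty acid synthesis.

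Expression of 8 of these genes (Hmgcs1, Sqle, Idi1, Fdps, Fdft1, Lss, Insig1 and Srebf2) was examined in mammary tissue of 22 mice, out of 52526 distinct gene symbols in the deposited files. The genes were taken by symbol and not by a filter on their values, though with earlier results of these data known, and all 8 symbols were found. Of these, 6 encode enzymes of synthesis, Insig1 encodes the sterol-dependent retention protein and Srebf2 the transcription factor, and the set holds no receptor for uptake. The genes of uptake were therefore read from a separate list of 12 genes.

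The tissue came from female C57BL/6J mice aged 7 to 8 weeks, each carrying 100000 EO771 cells, a mammary cancer line of the same strain that had been made to express firefly luciferase, in the left 4th mammary fat pad. For 2 weeks before engraftment and 24 hours after it, the home cage held either a running wheel with its hub (wheel) or a hub without wheel (control). All mice also received liposomes into a vein, 24 hours before engraftment and again at engraftment, filled either with PBS or with clodronate, a drug that kills phagocytes which take it up. PBS went to 6 control and 6 wheel mice, clodronate to 5 of each, so that no group lacked liposomes or cancer cells. Reads of the engrafted cells and of the host tissue were not separated, and in such bulk tissue fewer cells of a type and less RNA per cell cannot be told apart.

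Values are in CPM, counts of reads scaled to the library's mapped total, with no value below 1 in the deposited files. Each library held 13256467 to 20484578 reads, and a gene at this floor had at most 13 to 20 of them. Adipocyte markers were abundant in every mouse (Adipoq at 864.9 to 2656 CPM) and the epithelial marker Epcam stood at 34.4 to 111.1 CPM. The macrophage list, 8 genes of the phagocytes at which clodronate is aimed, was lower with clodronate in 8 of 8 genes (median log2 difference -0.25), but none of the 8 passed the test. Some mice stood apart on other marker lists. In 5 mice (1 control and 1 wheel with PBS, and 3 wheel with clodronate) the level of 12 lymphocyte genes, taken as the mean log2(CPM + 1), was 4.19 to 5.65, against 1.00 to 1.28 in the others. In 11 mice (3 control and 2 wheel with PBS, 3 control and 3 wheel with clodronate) the level of 12 epidermal genes was 6.59 to 9.33, against 2.08 to 4.54 in the others. Of the wheel mice with clodronate, refits without the 5 mice high in lymphocyte genes keep only mice 1 and 2, at epidermal levels of 7.60 and 8.35. Refits without the 11 mice high in epidermal genes keep only control mice 1 and 4 and wheel mice 4 and 5 with clodronate. Both of these wheel mice were high in lymphocyte genes, at levels of 5.65 and 4.99. The epidermal list was chosen after the values were seen, and included Krt10, a keratin of the upper skin layers, which ranged from 7.49 to 4443 CPM. The level of 8 skeletal muscle genes also varied widely, from 1.83 to 11.2. With clodronate averaged over activity 8 of 8 muscle genes (median log2 difference 1.52), 12 of 12 epidermal genes (1.13) and 12 of 12 lymphocyte genes (0.87) were higher, and none passed the test. The part of these lists in the clodronate differences that follow was not tested, beyond the refits without mice or with the epidermal covariate that are given.

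The promoters of 5 of the 8 genes (Hmgcs1, Idi1, Lss, Insig1 and Srebf2) were held in the RefSeq reference of GRCm38.p6, as 250 bases before and 50 after the transcription start. Sqle, Fdps and Fdft1 had no entry. Both strands were searched for 2 motifs: the core of the sterol regulatory element, TCACNCCAC, to which SREBP factors bind, and CCAAT, bound by the factor NF-Y that commonly sits beside it. No match of one overlapped a match of the other in the promoters printed. The sterol core was found in the Hmgcs1 promoter alone of the 5, and in 1.24% of all 32851 promoters of that length. CCAAT was found in 5 of 5, and in 37.4% of all promoters. Printed here are 3 promoters, 5′ to 3′ on the plus strand, with matches to either motif in capitals: Hmgcs1 for its sterol core (TCACCCCAC, starting at position -137 from the transcription start) and 4 CCAAT boxes, and Insig1 and Srebf2, the 2 regulators, for comparison, chosen after their values were seen. Every CCAAT match in them lies on the minus strand and so reads ATTGG here.
Hmgcs1, chr13:119690101-119690400: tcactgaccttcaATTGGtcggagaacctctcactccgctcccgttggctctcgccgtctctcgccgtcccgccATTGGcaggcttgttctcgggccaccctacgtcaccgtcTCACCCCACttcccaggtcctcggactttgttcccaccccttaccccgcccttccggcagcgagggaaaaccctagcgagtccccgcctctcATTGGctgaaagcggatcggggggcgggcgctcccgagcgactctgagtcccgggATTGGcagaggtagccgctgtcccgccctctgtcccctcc
Insig1, chr5:28071162-28071461: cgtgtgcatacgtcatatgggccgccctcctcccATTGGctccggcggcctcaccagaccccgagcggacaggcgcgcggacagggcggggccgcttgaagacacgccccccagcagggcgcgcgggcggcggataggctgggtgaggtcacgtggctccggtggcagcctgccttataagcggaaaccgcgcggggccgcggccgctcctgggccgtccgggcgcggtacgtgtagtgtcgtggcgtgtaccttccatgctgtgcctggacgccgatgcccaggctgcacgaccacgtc
Srebf2, chr15:82147019-82147318: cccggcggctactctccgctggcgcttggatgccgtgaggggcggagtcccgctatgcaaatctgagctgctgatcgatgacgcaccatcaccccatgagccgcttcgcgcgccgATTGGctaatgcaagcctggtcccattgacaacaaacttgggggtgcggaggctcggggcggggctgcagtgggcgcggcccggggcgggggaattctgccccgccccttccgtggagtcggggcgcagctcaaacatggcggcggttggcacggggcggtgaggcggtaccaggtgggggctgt
Among the 14 other enzymes of the pathway with a promoter in the reference, none had the sterol core as spelled here and 13 had CCAAT. A missing match says only that these letters are not in this window.

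The order of levels was Hmgcs1, Srebf2, Insig1, Sqle, Fdft1, Lss, Fdps and Idi1. These libraries read the 3′ end of each transcript once, so CPM was not divided by gene length. Hmgcs1 exceeded Srebf2 in 21 of 22 mice, by 1.65 ± 0.81 on the log2(CPM + 1) scale (SD, n = 22). The next genes were closer together: Srebf2 exceeded Insig1 in 12 of 22 mice and Sqle exceeded Fdft1 in 10 of 22, and both differences were smaller than their SD across mice. Insig1 exceeded Sqle in 17 of 22 mice by 0.49 ± 1.15, again less than the SD. Fdft1 exceeded Lss in 17 of 22 mice, Lss exceeded Fdps in 20 and Fdps exceeded Idi1 in 21, and of these steps the first, 0.76 ± 0.98, was smaller than its SD.

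**Figure D1:**
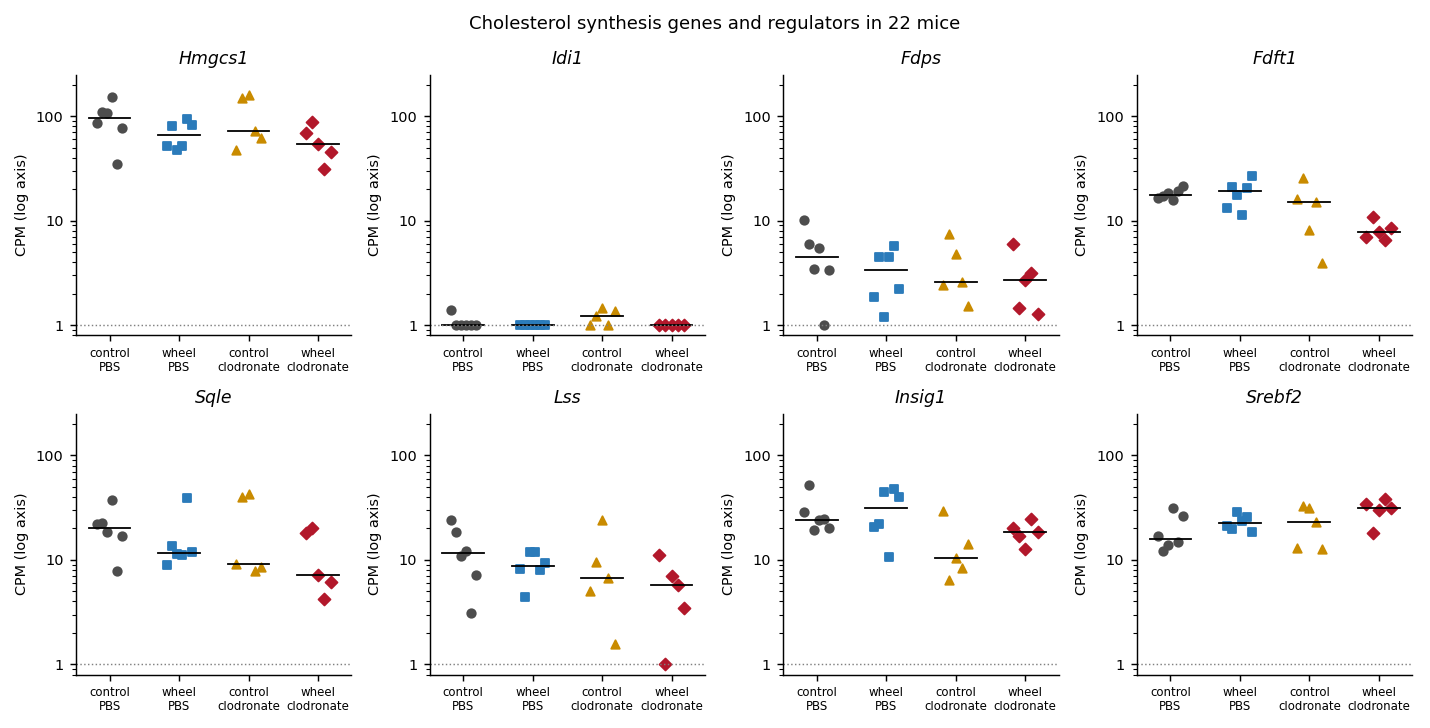
Each point is the CPM of 1 mouse on a log axis, for the 8 genes in the 4 groups, bars are group medians and the dotted line is the deposited floor of 1 CPM. Hmgcs1 runs from 31.2 to 158.7 CPM, Idi1 lies at the floor in 18 of 22 mice, and the Fdft1 values of wheel mice with clodronate lie below those of wheel mice with PBS.

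Srebf2 (chromosome 15, 82147181 to 82205379, plus strand, GRCm38) encodes SREBP2 itself. It stood at 12.2, 15.9 and 31.1 CPM (lowest, median and highest of 6) in control mice with PBS and at 18.6, 22.3 and 28.5 in wheel mice with PBS. Control mice with clodronate had 12.9, 32.7, 31.5, 23.2 and 12.8 CPM. In wheel mice with clodronate the values were 34.2, 18.04, 30.1, 38.3 and 31.5 CPM. The groups overlapped, with 4 of the 5 wheel mice with clodronate above 30. The log2 difference of wheel minus control was 0.30 (SE 0.26) with PBS and 0.48 (SE 0.28) with clodronate. Averaged over liposomes it was 0.39 (95% interval -0.01 to 0.78), with an unadjusted limma p of 0.0528 and an adjusted p of 0.616.

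Insig1 (chromosome 5, 28071363 to 28078662, plus strand) encodes a protein that holds SREBP in the endoplasmic reticulum and is itself an SREBP target. Control mice with PBS had 19.5, 24.3 and 52.5 CPM (lowest, median and highest of 6), and wheel mice with PBS 10.7, 31.2 and 47.6. With clodronate, the control mice had 29.3, 6.40, 10.5, 8.40 and 14.3 CPM. The wheel mice with clodronate had 20.04, 16.8, 12.8, 24.9 and 18.4 CPM. In control mice, 4 of the 5 clodronate values lay below every PBS value, and replicate 1, at 29.3 CPM, lay among them. Insig1 was lower with clodronate by a log2 difference of -1.09 (SE 0.36, unadjusted p = 0.00619, limma) in control mice and -0.57 (SE 0.36) in wheel mice. Averaged over activity the difference was -0.83 (95% interval -1.36 to -0.30), 0.562 of the PBS level on this scale, and did not pass the test over all genes (adjusted p = 0.190, limma). Without control mouse 1 with clodronate it was -0.98 and passed (adjusted p = 0.0466, limma), with adjusted p from 0.0466 to 0.354 as each mouse was left out. Without the 11 mice high in epidermal genes it was -0.41, and its adjusted p 0.804 (limma). The last 400 bases of Insig1 match Gm37784 over 127 bases, a gene at the floor in every mouse.

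Hmgcs1 (chromosome 13, 119690379 to 119708260, plus strand) encodes the cytosolic HMG-CoA synthase, an early step of the pathway. It read 34.8, 96.3 and 151.1 CPM (lowest, median and highest of 6) in control mice with PBS and 47.9, 66.5 and 94.5 in wheel mice with PBS. Control mice with clodronate had 47.3, 148.3, 158.7, 72.0 and 62.1 CPM. Wheel mice with clodronate had 68.7, 88.5, 53.6, 31.2 and 44.9 CPM. The values of wheel mice all lay within or below the range of the control mice. The log2 difference of wheel minus control was -0.38 (SE 0.33) with PBS and -0.68 (SE 0.36) with clodronate, and -0.53 (95% interval -1.04 to -0.03, unadjusted p = 0.0392, adjusted p = 0.600, limma) averaged over liposomes. All 12 epidermal genes were lower in wheel mice too (median log2 difference -0.89, none called), as were 8 of 8 skeletal muscle genes (median -1.55, none called), whose level had r = 0.46 with Hmgcs1 within groups over 22 mice (permutation p = 0.071, adjusted p = 0.311, rho = 0.44 with permutation p = 0.0805, and 0.30 without the 2 farthest mice). The part of the muscle genes was not tested. With the epidermal level as a covariate the Hmgcs1 difference was -0.37 (SE 0.14). All 12 lymphocyte genes were higher (median 1.31, none called), and without the 5 mice high in them it was -0.19 (SE 0.31). Clodronate gave a log2 difference of 0.02 (SE 0.34) in control mice and -0.28 (SE 0.34) in wheel mice. An antisense gene, Gm48342, overlaps exons of Hmgcs1 and was not among the symbols of the deposited values.

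Idi1 (chromosome 13, 8885501 to 8892451, plus strand) encodes the isomerase that makes dimethylallyl diphosphate. It was above the floor in 4 mice: 1.39 CPM in control mouse 1 with PBS, and 1.22, 1.47 and 1.36 CPM in control mice 2, 3 and 5 with clodronate. All 11 wheel mice lay at the floor, which at these depths means at most 13 to 18 reads each, so a level was not measurable there. The gene did not reach the 5 mice above the floor that testing required. The last 400 bases of its transcript match Gm13502 and Gm35570 over 354 bases, both at the floor in every mouse, and how reads shared with them were counted is not stated, so its level is uncertain.

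Fdps (chromosome 3, 89093588 to 89101959, minus strand) encodes farnesyl diphosphate synthase, whose product feeds both sterols and protein prenylation. It read 1.00, 4.49 and 10.2 CPM (lowest, median and highest of 6) in control mice with PBS and 1.20, 3.34 and 5.72 in wheel mice with PBS. With clodronate it read 2.44, 7.498, 4.81, 2.60 and 1.51 CPM in control mice. The wheel mice with clodronate had 5.99, 1.47, 2.73, 3.16 and 1.28 CPM. All groups overlapped, and no log2 difference exceeded 0.38 in size (SE 0.29 to 0.43 outside the interaction). Its 3′ end matches Gm3571, Gm43738 and Gm5873 over 400 bases. Of these only Gm3571 was above the floor, in 1 mouse. Gm43738 also overlaps Fdps on the same strand, so the Fdps level is uncertain.

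Fdft1 (chromosome 14, 63145150 to 63179578, minus strand) encodes squalene synthase, the first step committed to sterols. It was the most even of the set in control mice with PBS, at 15.9, 17.7 and 21.3 CPM (lowest, median and highest of 6), and read 11.2, 19.05 and 26.6 in wheel mice with PBS. In control mice with clodronate the values were 16.01, 25.8, 8.16, 15.0 and 3.92 CPM. In wheel mice with clodronate they were 6.96, 10.7, 7.78, 6.499 and 8.47 CPM. Every wheel mouse with clodronate lay below every wheel mouse with PBS, and Fdft1 was the only 1 of the 7 tested members with groups that did not overlap in that comparison, where 1.26% of the 15138 genes tested had none. In the other 3 comparisons of 2 groups 0 of 7 members had groups without overlap, against 0.264% of genes (wheel against control with PBS), 1.27% (wheel against control with clodronate) and 0.634% (clodronate against PBS in control mice). The log2 difference of clodronate minus PBS was -1.05 (SE 0.31, unadjusted p = 0.00253, adjusted p = 0.207, limma) in wheel mice and -0.58 (SE 0.31) in control mice. Averaged over activity it was -0.82 (95% interval -1.27 to -0.36, unadjusted p = 0.00115), 0.568 of the PBS level, with an adjusted p of 0.118 (limma). Without the mice high in lymphocyte genes the averaged difference was -0.77, and without those high in epidermal genes -0.65.

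The last 400 bases of Fdft1 lie whole within Ctsb, which runs on the opposite strand and encodes the lysosomal protease cathepsin B. Without a stated strand setting, the reads of these 2 genes cannot be told apart there. Ctsb itself stood at 304.0 to 672.0 CPM. Its group means were 560.8 and 522.1 CPM in control and wheel mice with PBS and 406.2 and 377.7 with clodronate. Across mice within groups, Fdft1 and Ctsb had a Pearson r of -0.28 (n = 22), given as a description, and the part of Ctsb in the Fdft1 values was not tested.

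Sqle (chromosome 15, 59315077 to 59331192, plus strand) encodes squalene epoxidase, a second control point of the pathway. It ranged over 10.1-fold between mice, more than any other member except Lss and Fdps, which touched the floor. Control mice with PBS had 7.89, 20.3 and 37.2 CPM (lowest, median and highest of 6), and wheel mice with PBS 8.97, 11.7 and 38.8. The control mice with clodronate fell into a pair at 39.6 and 42.3 CPM and the other three at 9.13, 7.79 and 8.60 CPM. The wheel mice with clodronate had 18.3, 20.3, 7.17, 4.19 and 6.13 CPM. Spread within groups was larger than any difference between them: wheel minus control was -0.42 (SE 0.46) with PBS and -0.72 (SE 0.51) with clodronate on the log2 scale. Without the 5 mice high in lymphocyte genes, 3 of them wheel mice with clodronate, the latter turned to 0.24 (SE 0.68). That refit kept only wheel mice 1 and 2 with clodronate, which read 18.3 and 20.3 CPM and were both high in epidermal genes. The part of the epidermal genes in this turn was not tested. No other gene's 3′ end matched that of Sqle.

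Lss (chromosome 10, 76531588 to 76557138, plus strand) encodes lanosterol synthase, which closes the sterol rings. It read 3.11, 11.5 and 24.0 CPM (lowest, median and highest of 6) in control mice with PBS and 4.46, 8.78 and 11.9 in wheel mice with PBS. Control mice with clodronate had 5.03, 9.51, 23.9, 6.67 and 1.58 CPM, and wheel mice with clodronate 11.2, 1.00, 7.05, 5.71 and 3.46. Groups overlapped throughout. The log2 difference averaged over activity was -0.66 for clodronate minus PBS (95% interval -1.42 to 0.09) and averaged over liposomes -0.39 for wheel minus control (95% interval -1.14 to 0.37). The last 400 bases of Lss match the overlapping antisense gene 4930483K19Rik over 109 bases, which was at the floor in every mouse.

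Tested with limma over 15138 genes, 0 of the 7 members passed an adjusted p of 0.05 in any of 7 comparisons. Few genes of any kind did: 0% for wheel against control with PBS liposomes, 0.00661% for wheel against control with clodronate liposomes, 0% for clodronate against PBS in control mice, 0.00661% for clodronate against PBS in wheel mice, 0% for wheel against control averaged over liposomes, 0.205% for clodronate against PBS averaged over activity and 0% for the interaction. At an unadjusted p under 0.05, 2 of 7 members (Fdft1 and Insig1, both lower) passed for clodronate averaged over activity, where 10.4% of all genes did. For wheel averaged over liposomes, 1 of 7 (Hmgcs1, lower) passed against 8.09% of all genes. For clodronate in control mice 1 of 7 passed (Insig1) against 6.99%, and in wheel mice 1 of 7 (Fdft1) against 11.6%. For the wheel within either liposome group and for the interaction the count was 0 of 7. The comparisons share control samples, and the averaged ones are built from the others, so these counts are not independent of each other.

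By direction, 6 of 7 members were lower with clodronate averaged over activity (median log2 difference -0.37) beside 57.4% of all genes (median -0.04), with Srebf2 the exception. Without the 5 mice high in lymphocyte genes 4 of 7 were lower (median -0.15) beside 63.4% of all genes, as Hmgcs1 and Sqle turned. With the wheel averaged over liposomes 5 of 7 were lower (median -0.32) beside 57.3% of all genes (median -0.04), with Srebf2 and Insig1 the exceptions. Without the same 5 mice 5 of 7 were lower, with a median of -0.09. None of these directions is a test. Intervals were wide: for Sqle the 95% interval of the wheel difference averaged over liposomes ran from -1.28 to 0.14, so these data leave the size of any difference poorly bounded.

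**Figure D2:**
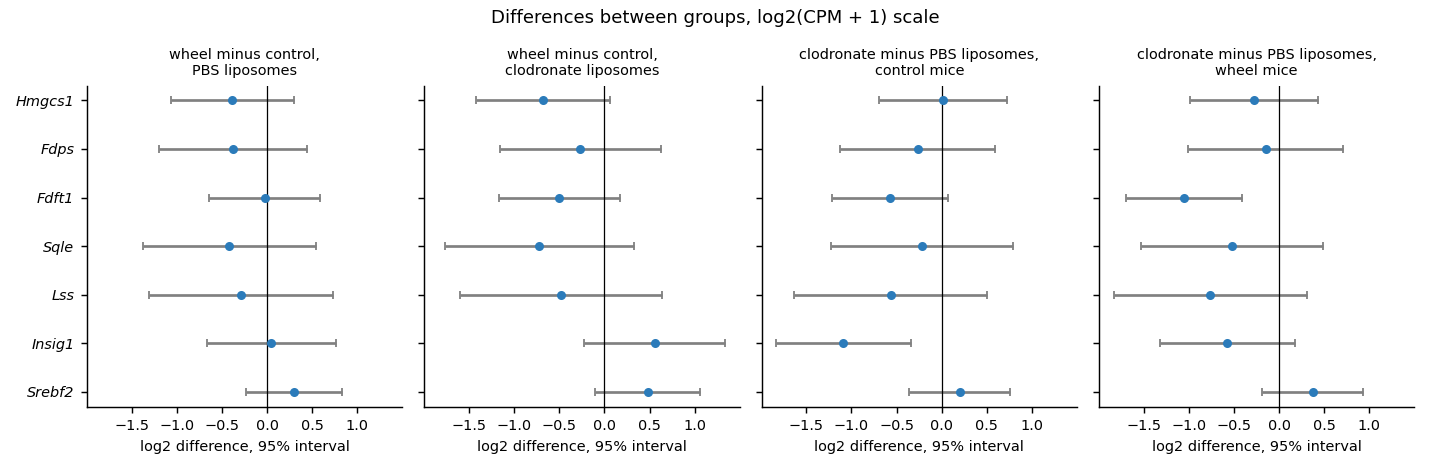
Log2 differences with their 95% intervals (limma, log2(CPM + 1) scale) for the 7 tested members in the 4 comparisons of 2 groups. The interval lies below 0 for Insig1 with clodronate in control mice (-1.84 to -0.34) and for Fdft1 with clodronate in wheel mice (-1.70 to -0.41), and includes 0 for the others.

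The other enzymes of the pathway, a list of 16 genes, were read in the same fits. With clodronate averaged over activity 1 of 16 passed the test, Sc5d, the lathosterol oxidase, which was lower by a log2 difference of -0.71 (SE 0.13, adjusted p = 0.0177, limma). The difference was -0.63 under upper-quartile scaling, -0.67 with the replicate block, -0.69 without the mice high in lymphocyte genes and -0.59 without those high in epidermal genes, and the call was lost in each (adjusted p = 0.0553 to 0.336, limma). With the epidermal level as a covariate Sc5d had -0.67 and stayed called (adjusted p = 0.01987, limma). It read 52.7, 71.9 and 101.4 CPM (lowest, median and highest) in control mice with PBS and 33.1, 43.1 and 64.5 with clodronate. In wheel mice the same values were 54.9, 58.3 and 93.3 CPM with PBS and 36.1, 37.7 and 43.3 with clodronate. The wheel groups thus did not overlap for Sc5d, as for 1.26% of the 15138 genes tested. In all, 12 of 16 were lower (median -0.24), 5 of them at an unadjusted p under 0.05, beside 57.4% of all genes lower and 10.4% with such a p in either direction. With the wheel averaged over liposomes 15 of 16 were lower (median -0.22), none passed and 3 had an unadjusted p under 0.05, beside 57.3% lower and 8.09% with such a p over all genes. That count was 12 of 16 without the mice high in lymphocyte genes, 9 of 16 without those high in epidermal genes and 12 of 16 with the epidermal covariate. Among genes with no call, Nsdhl, a sterol dehydrogenase, had -0.81 and -1.004 with clodronate in control and wheel mice. Sc5d had -0.73 and -0.70 in the same comparisons. With the wheel, the smallest p-values belonged to Ggps1, which makes geranylgeranyl diphosphate, and Hsd17b7, at -0.54 and -0.75 with PBS and -0.45 and -0.73 averaged over liposomes. With clodronate liposomes they belonged to Mvk, mevalonate kinase, at -0.68, and Lbr, a sterol reductase of the nuclear envelope, at 0.60, which was -0.19 without the mice high in lymphocyte genes. In the interaction Lbr had 0.91 and Tm7sf2 -0.86. Adjusted p-values in this paragraph other than for Sc5d averaged over activity were 0.0527 or higher (limma).

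The fatty acid synthesis list, 10 genes of the kind SREBP1 is known to drive, was read beside it. All 10 were lower averaged over activity (median log2 difference -1.31), each with an unadjusted p under 0.05, against 10.4% of all genes. Without the mice high in lymphocyte genes the 10 were lower by a median of -1.22, all with such a p, and without those high in epidermal genes by -0.60, 2 with such a p. Of the 10, 1 passed the test over all genes: Scd2, a stearoyl-CoA desaturase, was lower by -1.43 (SE 0.26, adjusted p = 0.0168, limma), and lower by -1.62 and -1.10 without the mice high in lymphocyte or in epidermal genes, where the call was lost (adjusted p = 0.0885 and 0.384, limma). Without control mouse 3 with clodronate, Scd2 and Sc5d both had an adjusted p of 0.0501 (limma). With the epidermal level as a covariate Scd2 had -1.29 and stayed called (adjusted p = 0.01015, limma). Scd2 read 62.1, 92.0 and 271.7 CPM (lowest, median and highest) in control mice with PBS and 31.9, 37.4 and 62.1 with clodronate. In wheel mice it read 37.2, 113.0 and 138.3 CPM with PBS and 16.1, 33.9 and 61.9 with clodronate. Acly, which supplies acetyl-CoA to both fatty acids and sterols, had -2.47 in control mice and Acss2, which makes it from acetate, -2.06 (adjusted p = 0.310 and 0.341, limma). In wheel mice Scd2 had -1.39 and Scd1 -1.02 (adjusted p = 0.173 and 0.288). With the wheel no gene of the list passed: Scd2 had -0.23 and Fasn 0.29 with PBS, Acly 1.11 and Fasn 0.81 with clodronate, and Fasn 0.55 and Acly 0.49 averaged. In the interaction Acly had 1.23 and Acss2 0.81. The adipocyte list was lower with clodronate as well, in 8 of 8 genes (median -0.50, 4 at an unadjusted p under 0.05, none called), while the muscle, epidermal and lymphocyte lists were higher by the medians given above. The part of the adipocyte list in these differences was not tested.

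In the list of regulators of SREBP processing (7 genes) none passed in any comparison. Among the genes with the smallest p were Srebf1 (-0.58) and Mbtps2 (-0.43) for clodronate in control mice, and Mbtps2 (0.89), a protease that cuts SREBP, in wheel mice. Averaged over activity Srebf1 had -0.48 and Insig2 -0.29. With the wheel these included Mbtps2 (-0.84) with PBS, Insig2 (-0.38) with clodronate, and Insig2 (-0.28) and Rnf139 (0.13) averaged. In the interaction Mbtps2 had 1.32. All adjusted p-values in this list were 0.338 or higher (limma).

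In the list of uptake and intracellular transport (12 genes) none passed, and 11 of 12 were lower with clodronate averaged over activity (median -0.20), beside 57.4% of all genes (median -0.04). Without the mice high in epidermal genes the count was 7 of 12. Scarb1, a receptor for high-density lipoprotein, had -0.47 in control mice, -0.56 in wheel mice and -0.52 averaged (adjusted p = 0.159, limma). Npc2, a carrier of cholesterol out of lysosomes, had -0.30 in control mice and -0.26 averaged. With the wheel, Npc1 had 0.30 and Stard3 0.27 with PBS, Mylip 0.48 with clodronate, and Npc1 0.28 and Stard3 0.38 averaged. In the interaction Vldlr had -0.50 and Mylip 0.33.

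In the list of efflux, oxysterol and ester storage genes (11 genes, 10 tested) none passed. Abcg1, an exporter of cholesterol, had 0.96 for the wheel with clodronate and 0.60 averaged over liposomes (adjusted p = 0.397 and 0.611, limma), where the next were Abca1 at 0.30 and Cyp7b1 at 0.34, respectively. All 12 lymphocyte genes were higher for the wheel with clodronate (median 2.55, each with an unadjusted p under 0.05, none called), and without the 5 mice high in them Abcg1 had 0.09 and 0.19. With PBS the wheel gave 0.38 for Nr1h3, a sterol-sensing nuclear receptor, and 0.40 for Cyp7b1. Clodronate gave -0.49 for Soat1 and -0.20 for Abca1 in control mice, 0.73 for Abcg1 and -0.39 for Nr1h3 in wheel mice, and -0.23 for Nr1h3 and 0.37 for Abcg1 averaged. In the interaction Soat1 and Abcg1 both had 0.72.

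Differences between single mice were then described with the group means removed, as deviations of log2(CPM + 1) over 22 mice. Across the 28 pairs of members the median Pearson r was 0.26, from -0.42 to 0.89, with 7 of them resting on Idi1 and its 4 values above the floor. Over the 21 pairs without Idi1 the median was 0.24, from -0.34 to 0.89. Each of the 7 tested members against all other genes above the floor in every mouse (9346 or 9347 genes) had a median r between -0.12 and 0.02. In all 112 relations among members, and of members with gene lists, were computed for p-values, which come from 100000 permutations of mice within groups and are adjusted over the 112.

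Hmgcs1 and Sqle went together most closely, with r = 0.89 (permutation p = 1e-05, the smallest these permutations can give, adjusted p = 0.00056) and Spearman's rho = 0.92 (permutation p = 1e-05). Without the 2 mice farthest from the median in Hmgcs1 deviation r was 0.89. Fdps and Lss had r = 0.67 (permutation p = 0.00185, adjusted p = 0.0345) and rho = 0.60 (permutation p = 0.00666), with r = 0.55 without the 2 farthest mice. Sqle and Fdps had r = 0.64 (permutation p = 0.00339, adjusted p = 0.0475), rho = 0.62 (permutation p = 0.00504) and r = 0.60 without the 2 farthest. Neither Fdps with Lss nor Sqle with Fdps passed by r within the clusters of epidermal level described below, of 11 mice each. The 6 pairs among Hmgcs1, Sqle, Fdps and Lss, set apart after their values were seen, ran from 0.38 to 0.89 (median 0.61). Fdft1 had a median r of 0.12 with the other 6 and none over 0.24, and Insig1 ran from -0.34 to 0.04 (median -0.08). Another relation passed, that of Sqle with a brown fat list (r = 0.65, permutation p = 0.00336, adjusted p = 0.0475, rho = 0.66 with permutation p = 0.00383, and 0.55 without the 2 farthest mice). Of the 6 genes of that list, Ucp1 was above the floor in only 4 of 22 mice, Elovl3 in 14 and Otop1 in 17. This relation was not computed within the clusters of epidermal level, and the part of that level in it was not tested.

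**Figure D3:**
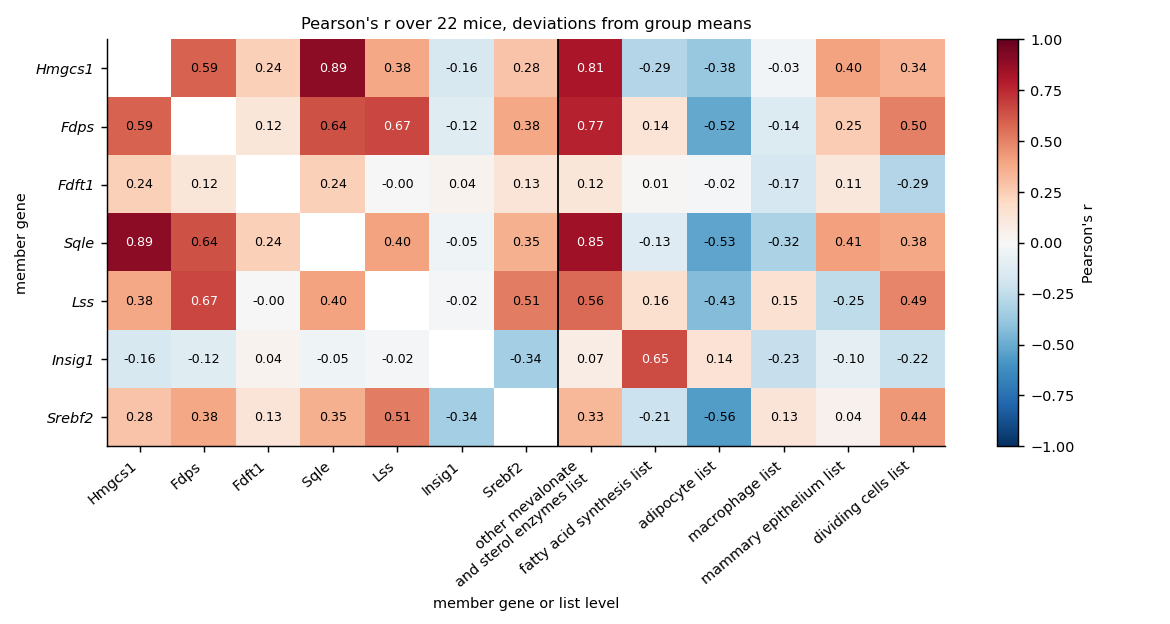
Pearson's r over 22 mice, after removal of group means, of each of the 7 tested members (rows) with the other members and with the mean level of 6 gene lists (columns right of the line). Hmgcs1, Sqle and Fdps have r of 0.77 to 0.85 with the other sterol enzymes, while Insig1 has 0.65 with the fatty acid synthesis list and 0.07 with the other sterol enzymes.

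The other 16 enzymes of the pathway, as a list, followed the same members: r = 0.85 with Sqle (permutation p = 1e-05, adjusted p = 0.00056, rho = 0.87 with permutation p = 1e-05), 0.81 with Hmgcs1 (permutation p = 6e-05, adjusted p = 0.00224, rho = 0.85 with permutation p = 2e-05) and 0.77 with Fdps (permutation p = 0.00025, adjusted p = 0.007, rho = 0.76 with permutation p = 0.00025). Without the 2 farthest mice these were 0.81, 0.76 and 0.68. The list was mixed: of its 15 genes above the floor in all mice, 8 lay in the top 1% for likeness to the mean of the members. Ggps1 had r = -0.44 with Hmgcs1 and -0.65 with Sqle, and Sc5d had -0.15 and -0.25. Acat2 and Nsdhl had r of -0.08 and -0.01 with Hmgcs1, and 0.51 and 0.45 with Insig1. Insig1, by contrast, had r = 0.65 with the fatty acid synthesis list (permutation p = 0.00168, adjusted p = 0.0345, rho = 0.71 with permutation p = 0.00048) and 0.57 without the 2 farthest mice. The 3 genes whose deviations were most like those of Insig1 were Slc25a10 (r = 0.84), Agpat2 (0.78) and Thrsp (0.77). A test of the difference between Insig1 and the other members in these r was not made.

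**Figure D4:**
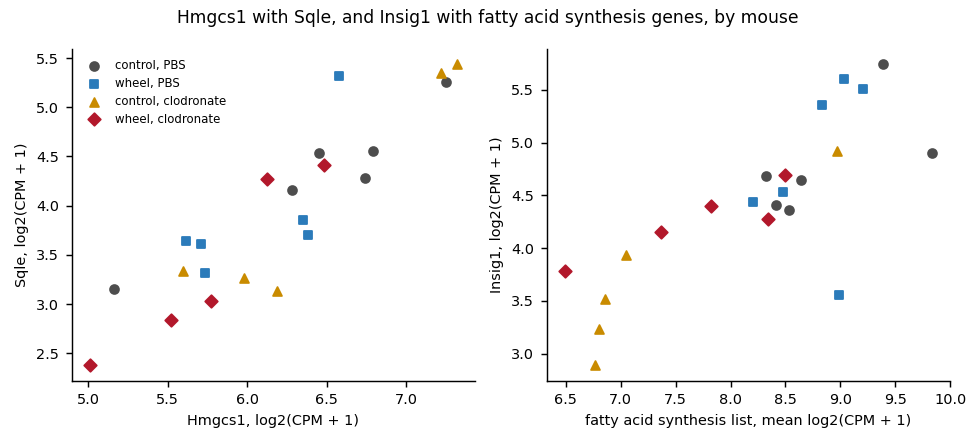
Left, Sqle against Hmgcs1, and right, Insig1 against the mean level of 10 fatty acid synthesis genes, both as log2(CPM + 1) with 1 point per mouse and a symbol per group. Over the 22 mice Hmgcs1 and Sqle are low and high together (r = 0.89 with group means removed), as are Insig1 and the list (r = 0.65), and 1 wheel mouse with PBS, at 10.7 CPM of Insig1, lies below mice of a like list level.

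The 10 genes outside the set whose deviations were most like the mean of the members, out of 9342 genes, were Cyp51 (r = 0.92), Dhcr7 (0.82), Avpi1 (0.81), Tex264 (0.79), Cln8 (0.78), Nab1 (0.78), Fig4 (0.78), Tubb4b (0.78), Hspa4l (0.77) and Rala (0.77). Over all genes the median r was -0.06. Without Idi1 in the mean 8 of these 10 stayed among the top 10, while Cln8 and Tubb4b moved to rank 15 and 12. Of the 15 other sterol enzymes above the floor in all mice, 8 lay in the top 1% of the 9342 genes, among them Cyp51, Dhcr7, Hsd17b7, Mvd, Msmo1 and Mvk. None of the 10 fatty acid synthesis genes and none of the 6 regulators did. Cyp51, the lanosterol demethylase, read 11.6, 37.6 and 61.1 CPM (lowest, median and highest) in control mice with PBS.

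The epidermal genes were set beside the members as a measured fact about the tissue pieces. Since the mice formed clusters on that list, r was computed within each cluster of 11 mice, with the group means of that cluster removed. Where the list was over 5, Hmgcs1 had r = 0.99 with it (permutation p = 0.00453, rho = 0.96 with permutation p = 0.00453), and Sqle r = 0.95 (permutation p = 0.00663, rho = 0.91 with permutation p = 0.00453). Where it was at or below 5, they had 0.61 (permutation p = 0.180, rho = 0.61 with permutation p = 0.167) and 0.13 (permutation p = 0.875, rho = 0.11 with permutation p = 0.848). Hmgcs1 ranged from 53.6 to 158.7 CPM (median 94.5) in the former mice and from 31.2 to 86.5 CPM (median 51.3) in the latter. For Sqle the medians were 20.3 and 9.13 CPM. The medians of Fdft1 were 15.9 and 16.01 CPM and those of Insig1 19.5 and 24.7 CPM. Over 5, Fdft1 had r = 0.61 (permutation p = 0.458, rho = 0.27 with permutation p = 0.578) and Insig1 r = -0.18 (permutation p = 0.645, rho = -0.11 with permutation p = 0.813) with the list. These p-values are unadjusted, from 16 gene and cluster pairs. Over 5 the groups held only 2 or 3 mice, so permutation within groups has few distinct arrangements and p has a high lower limit. The p of 0.00249 that follows lies at or near that limit. Hmgcs1 and Sqle had r = 0.93 with each other over 5 (permutation p = 0.00249, rho = 0.91 with permutation p = 0.00249) and 0.78 at or below 5, where the relation did not pass (permutation p = 0.0865, rho = 0.64 with permutation p = 0.0948). Fdps and Lss had r = 0.82 over 5 (unadjusted permutation p = 0.0764, rho = 0.77 with permutation p = 0.0436). At or below 5 they had 0.88 (permutation p = 0.0624, rho = 0.80 with permutation p = 0.0488). Sqle and Fdps had r = 0.605 over 5 (permutation p = 0.201) and 0.66 at or below 5 (permutation p = 0.292, rho = 0.255 with permutation p = 0.599). With the list regressed out the r of Hmgcs1 and Sqle was 0.69 over 22 mice, given as a description. Its part in the differences between groups was not tested beyond the refits with it as a covariate.

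**Figure D5:**
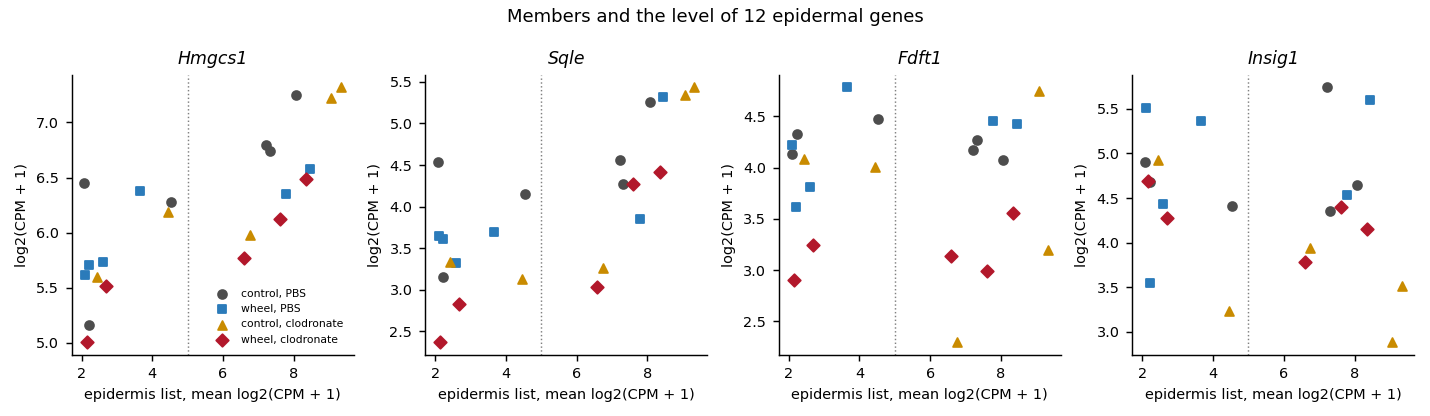
Log2(CPM + 1) of Hmgcs1, Sqle, Fdft1 and Insig1 against the mean level of 12 epidermal genes, with 1 point per mouse, a symbol per group and a dotted line at 5. Among the 11 mice over 5, r with the list was 0.99 for Hmgcs1, 0.95 for Sqle, 0.61 for Fdft1 and -0.18 for Insig1. These r were computed with the group means among those mice removed, while the points show values without that removal.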

How the data were processed

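Total RNA of each left 4th mammary tissue was made into QuantSeq 3′FWD libraries, 1 library per mouse,. The deposited values are CPM, read counts scaled to mapped reads, which the authors made per sample from a mapping to the mouse genome; the submitters' processing notes name STAR 2.5.3a and GRCm38. They are treated as a signal, since the deposited files hold no raw counts and no value under 1. The strand setting of the counting is not given in the sources used here. Steps between values gave the depth, 13256467 to 20484578 reads per mouse, with 100% of values above the floor whole within 0.1 read.

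The 15138 genes that exceeded 1 CPM in 5 or more mice were tested on log2(CPM + 1) with limma 3.58.1 in R 4.3.3, as 4 group means with a variance trend and Benjamini-Hochberg adjustment over all genes, at an adjusted p of 0.05. The step was tested on simulated data. P-values measure the spread between mice. Differences between groups on this scale understate those of low genes. Correlations used numpy 2.4.6 and pandas 2.3.3 under Python 3.11.15, and 3′ ends (the last 400 bases) were matched with blastn 2.17.0 at 97% identity over 100 bases or more. Gene positions are from GENCODE M21 on GRCm38 and promoters from RefSeq on GRCm38.p6.

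Named genes were the 8 members, listed genes called in a comparison, the 2 with the smallest p per list where none was called, and the 10 genes most like the members' mean. Some listed genes that this rule names are not reported here. The members and lists were chosen with earlier results of these data known. Alternatives covered the pseudocount, filter, scaling, variance trend, replicate block and each mouse left out. Leaving out the mice high in lymphocyte or epidermal genes, the epidermal covariate and the set without Idi1 were chosen after seeing the data.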

Additional observations from a re-analysis of the deposited data

Results flagged for a closer look

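Of 30 groups of single-gene values examined for 1 mouse far from the others, 2 were flagged, where chance flags about 1 in 20. Sqle in wheel mouse 5 with PBS read 38.8 CPM and the nearest mouse of its group 13.4 CPM, a gap of 0.732 of the whole range of the group on the log2(CPM + 1) scale, above the critical value of 0.625. The same mouse had the highest epidermal level of its group, 8.45 on the mean log2(CPM + 1) scale, and the part of that level in the value was not tested. Idi1 in control mouse 1 with PBS read 1.39 CPM while the other mice of its group lay at the floor, so that the gap was 1.0 of the range. Any single value above the floor gives that gap in such a group, so the rate of 1 in 20 does not apply to it.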

How the results depend on the processing

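Members' differences were recomputed under the planned settings other than leaving out a mouse (462 values, 460 with the direction and side of the threshold as reported). The exceptions were Fdft1 for the wheel with PBS, at 0.049 under upper-quartile scaling and 0.002 with scaling to assigned reads. No member was called under any of these or under the settings chosen after seeing the data. With each mouse left out, the members called for clodronate averaged over activity ran from 0 to 1, Insig1 from -0.98 to -0.73. Differences that changed sign ran from -0.14 to 0.10 (Fdft1) and -0.11 to 0.30 (Insig1) for the wheel with PBS, from -0.24 to 0.23 (Hmgcs1) and -0.55 to 0.023 (Sqle) for clodronate in control mice, from -0.39 to 0.017 (Fdps) for clodronate in wheel mice, and from -0.56 to 0.03 (Sqle), -0.12 to 0.39 (Fdps) and -0.60 to 0.22 (Lss) in the interaction. Without the 5 mice high in lymphocyte genes, signs turned for Sqle, to 0.24 (wheel with clodronate), 0.38 (clodronate in wheel mice), 0.10 (clodronate averaged) and 0.55 (interaction), and for Hmgcs1, to 0.15 (clodronate in wheel mice), 0.12 (clodronate averaged) and 0.069 (interaction). Of the wheel mice with clodronate that refit kept only mice 1 and 2, both high in epidermal genes. Without the 11 mice high in epidermal genes signs turned for Lss, to 0.25 (wheel with PBS), and for clodronate in control mice for Hmgcs1, to -0.072, and Srebf2, to -0.11. With the epidermal covariate Hmgcs1 there was -0.20. The cause was not tested.

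For clodronate averaged over activity, 31 genes were called, and 14 with upper-quartile scaling, 15 with scaling to assigned reads, 20 without the variance trend, 54 with a mean of at least 5 CPM, 0 without the mice high in lymphocyte genes (1898 at an unadjusted p under 0.05) and 14, none of them lower, without those high in epidermal genes. Of the wheel mice with clodronate, the refit without mice high in epidermal genes kept only mice 4 and 5, both high in lymphocyte genes. Leaving out single mice gave 9 (without control mouse 3 with clodronate) to 146 (without control mouse 1 with clodronate). With the replicate block 11 genes and 0 members were called. Same-numbered mice had mean correlations of -0.08 to 0.18, so the numbers were not taken to pair mice. The median r among members ran from 0.18 to 0.27 as mice were left out. Values at the floor limit Idi1, which had at most 20 reads there.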

Other observations

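Several genes outside sterol synthesis followed single members across the 22 mice with group means removed, given as a description. The gene most like Sqle was Ybx3 (Pearson r = 0.91), that most like Fdps was Rala (0.88), that most like Lss was Scrib (0.84), that most like Fdft1 was Ube3b (0.74) and that most like Srebf2 was Dnase2a (0.80). Among the other sterol enzymes, Msmo1, a methyl sterol oxidase, had r = 0.91 with Hmgcs1, the highest of 9346 genes. Sc5d had r = 0.00 with the mean of the members.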
